A study of Mus musculus with 16 samples.

Results

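Celf4, Arfgef3, Tmem182, Fam43a and Auh were 5 genes that held or neighboured strong V5-tagged fusion binding sites in mouse EWSR1::ATF1 tumours. They were chosen by the V5 peak list itself, for peaks with the highest column 5 scores or for the densest run of V5 peaks, out of 21938 protein-coding genes, so their V5 scores and V5 peak numbers are given as a description only. Other sites of high score, among them ranks 2 and 5 to 11 of the list, were not taken. Each gene was taken with 100 kb on either side (GENCODE vM21, mm10), and these 5 windows held 60 of 10665 V5 peaks, 131 of 20375 RNA polymerase II (RNAPOL2) peaks and 75 of 27552 H3K27ac peaks. Celf4 lay at chr18:25477632-25754157 on the minus strand, Arfgef3 at chr10:18581839-18743949 on the minus strand, Tmem182 at chr1:40805601-40856887 on the plus strand, Fam43a at chr16:30599723-30602797 on the plus strand and Auh at chr13:52835119-52929681 on the minus strand.

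All 16 ChIP-seq samples came from hindlimb tumours of mice of mixed 129/SvJ and C57Bl/6 background, with 4 samples each for V5, RNAPOL2, H3K27ac and input. Tumours arose after TATCre injection removed a loxP-flanked stop in front of a V5-tagged human EWSR1::ATF1 type 1 cDNA at Rosa26, so the fusion was driven by the Rosa26 promoter in every sample, and no tumour without the tag was part of the lists. One peak list per antibody was available, which gives no value per tumour, no replicate spread and no test, and the lists hold no read counts. Scores were therefore compared within a list only, and ranks count from the highest score of a list. As a check of the tissue, RNAPOL2 and H3K27ac peaks both lay at the promoters of 2 of 6 melanocytic marker genes (Mitf and Pmel), 0 of 7 skeletal muscle genes, 1 of 4 blood and immune genes (Cd68) and 1 of 3 endothelial genes (Kdr), against 52.2% of all coding genes. H3K27ac alone or with RNAPOL2 was called at 3 of 6 melanocytic, 0 of 7 muscle, 4 of 4 blood and immune and 3 of 3 endothelial promoters, against 58.6% of coding genes, and Sox10, Mlana and Tyr had neither mark. The part of blood, immune or endothelial cells in the lists was not tested.

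EWSR1::ATF1 is the fusion protein of clear cell sarcoma. It joins the low-complexity activation domain of EWSR1 to the basic leucine zipper of ATF1, a factor that binds the cyclic AMP response element TGACGTCA and its core TGACG. H3K27ac, acetylation of histone H3 at lysine 27, marks active promoters and enhancers, and RNAPOL2 marks sites where polymerase is loaded or transcribing. Transcription factors often bind far from promoters, within introns or between genes, so a strong binding site does not by itself tell whether the promoter of its gene is in use.

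The strongest V5 peaks at Arfgef3, Tmem182 and Fam43a contained tandem repeats, and the letters are shown because these sites shared them. Each run below is the 300 bases of the peak that held most copies of TGATG or of its reverse complement CATCA, from GRCm38 (the assembly of mm10), plus strand, 5′ to 3′, with those copies in capitals. The word was picked after the sequences had been read, so its counts are a description. The Arfgef3 stretch is chr10:18705805-18706104, the Tmem182 stretch is chr1:40812146-40812445 and the Fam43a stretch is chr16:30610633-30610932.
Arfgef3: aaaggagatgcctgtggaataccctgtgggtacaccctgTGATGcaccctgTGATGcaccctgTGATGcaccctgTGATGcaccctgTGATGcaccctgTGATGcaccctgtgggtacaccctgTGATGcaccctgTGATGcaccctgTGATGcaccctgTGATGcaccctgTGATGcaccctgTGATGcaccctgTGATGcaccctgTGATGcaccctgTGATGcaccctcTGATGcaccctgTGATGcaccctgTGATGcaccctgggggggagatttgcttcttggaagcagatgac
Tmem182: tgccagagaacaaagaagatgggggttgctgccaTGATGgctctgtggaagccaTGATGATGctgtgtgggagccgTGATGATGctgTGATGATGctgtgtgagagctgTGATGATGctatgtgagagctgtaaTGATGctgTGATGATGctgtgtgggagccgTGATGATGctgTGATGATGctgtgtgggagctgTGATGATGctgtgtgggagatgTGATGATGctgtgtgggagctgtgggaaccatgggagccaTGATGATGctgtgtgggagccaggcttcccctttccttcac
Fam43a: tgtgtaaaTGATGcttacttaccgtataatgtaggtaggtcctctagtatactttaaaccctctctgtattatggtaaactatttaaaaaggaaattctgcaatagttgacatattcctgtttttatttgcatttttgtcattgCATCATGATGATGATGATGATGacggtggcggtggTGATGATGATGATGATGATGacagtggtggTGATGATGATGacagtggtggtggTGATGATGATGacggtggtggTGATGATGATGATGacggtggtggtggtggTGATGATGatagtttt
The Arfgef3 stretch held 18 copies of TGATG and matched itself best at a shift of 12 bases, where 79.9% of bases were equal to the base 12 positions on. In the Tmem182 stretch 22 copies recurred in a longer and less regular unit, with a best shift of 22 bases and 62.6% equal bases. The Fam43a stretch held 25 copies, mostly as runs of TGA triplets broken by short GT-rich pieces, with a best shift of 3 bases and 54.5% equal bases. In the same search 0.159%, 0.441% and 0.891% of all V5 peaks reached the shares of equal bases at Arfgef3, Tmem182 and Fam43a.

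The strongest peak at Celf4 was of the same kind, with 19 copies of CATCA in 300 bases and a best shift of 16 bases with 76.4% equal bases. Its repeat lay off the middle of a wide peak, centred 352 bases away, so the central 300 bases of that peak held 0 copies. The strongest peak at Auh differed, with 1 copy in its best 300 bases and 2 over its whole length. Over all 10665 V5 peaks the median was 1 copy, and at least as many copies as at Celf4, Arfgef3, Tmem182 and Fam43a were found in 0.619%, 0.713%, 0.488% and 0.366% of peaks. Of all 8824592 300-base tiles of the genome without unknown bases, 304 held the 19 copies seen at Celf4 or more, 380 the 18 of Arfgef3, 186 the 22 of Tmem182 and 103 the 25 of Fam43a. Tiles lay at fixed places, whereas the count of a peak comes from its best-placed 300 bases. Tiles can therefore undercount such repeats, and the measures are unlike. Wide peaks offer more stretches to search. Among V5 peaks at least as wide, itself included, the Celf4 count was reached by 2 of 48 peaks (4.17%), the Arfgef3 count by 5 of 76 (6.58%), the Tmem182 count by 13 of 628 (2.07%) and the Fam43a count by 7 of 447 (1.57%).

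The 55 lower V5 peaks of the 5 windows had a median of 2 copies. Their highest count was 13, a number that 1.29% of all V5 peaks reached, in an intronic Tmem182 peak of score 1047 at chr1:40844611-40845800. Among the 15 highest V5 scores of the whole list, 7 peaks held 17 or more copies. These were the peaks at Celf4, Arfgef3, Tmem182 and Fam43a together with ranks 5, 7 and 15, whereas rank 2, 587 bp from a start site of Crem, held 2 copies. The rest of the 15 held 2 to 8 copies, and 0.713% of all V5 peaks held 18 or more. Member sequences had been read when the word was picked, which bears on the count of 7.

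**Figure D1:**
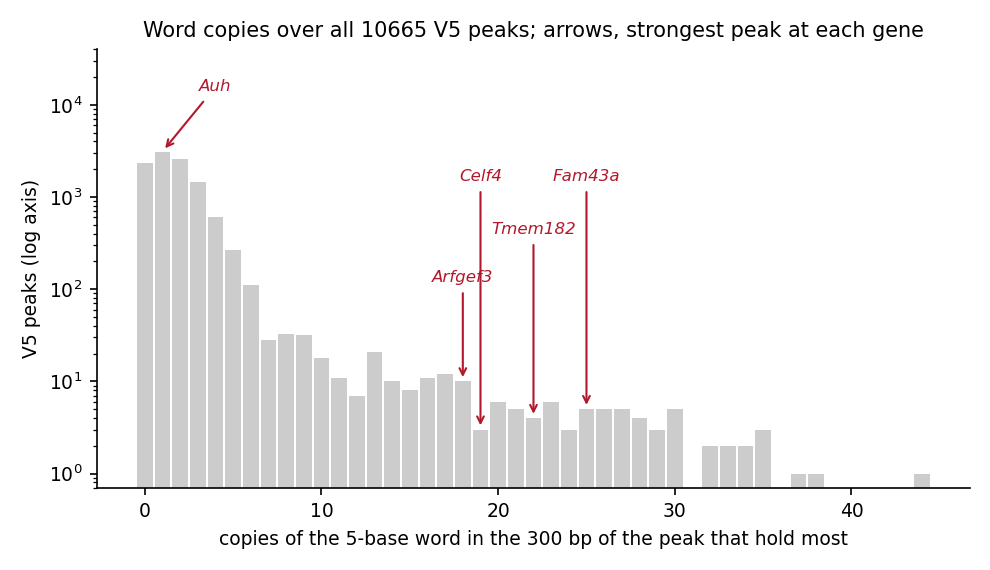
The horizontal axis is the number of TGATG or CATCA copies in the 300 bp of a V5 peak that hold most, and the vertical axis is the number of V5 peaks on a log scale, over all 10665 peaks. Arrows mark the strongest peak of each gene, with Celf4, Arfgef3, Tmem182 and Fam43a at 18 to 25 copies in the thin tail and Auh at 1 copy beside the list median.

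The full response element TGACGTCA was absent from all 60 V5 peaks of the windows. In the central 300 bases of each peak it was found 0 times in 60 (Wilson 95% interval up to 6.02%), against 6.30% of all V5 peaks and 0.160% of genome tiles, and over whole peaks it was again found in 0 of 60, against 8.51% of all V5 peaks. The core TGACG, on either strand and within or outside the full element, lay in the central 300 bases of 16 of 60 peaks (26.7%, 17.1 to 39.0%), against 51.8% of all V5 peaks and 7.17% of tiles, and over whole peaks it was in 35 of 60 (58.3%), against 70.9%. Other forms of TGANNTCA were in 9 of 60 (15%, 8.10 to 26.1%), against 23.0% of all V5 peaks and 13.0% of tiles. The AP-1 site TGAGTCA, read on both strands, was in 8 of 60 (13.3%, 6.91 to 24.2%), against 14.2% and 4.66%. Over whole peaks, which were wider in the windows (median 990 bp) than in the list (710 bp), other TGANNTCA was in 50% against 40.3% of all V5 peaks, and TGAGTCA in 38.3% against 26.0%. Strings of at least 5 TGA or TCA units with gaps of at most 5 bases were in 4 of 60 (6.67%, 2.62 to 15.9%), against 5.62% and 2.55%, and 43 of 60 peaks (71.7%, 59.2 to 81.5%) had none of these 4 elements, counting TGACGTCA, other TGANNTCA, TGAGTCA and the strings, against 59.6% of all V5 peaks. Over whole peaks 19 of 60 (31.7%) had none of the 4, against 39.0%. In the central 300 bases, strings without gaps were in 1 of 60 (1.67%), the strongest Fam43a peak, against 0.413% of all V5 peaks. The string rule found the Fam43a repeat, with 3 strings in the central window, but not the longer units of Arfgef3 and Tmem182. The intervals cover counting error only, and peaks of 1 window share a locus.

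A single peak dominated the V5 signal at Celf4, Arfgef3, Tmem182 and Fam43a, whereas at Auh 6 peaks of 2091 to 4927 shared 83.0% of the summed score and the other 15 scored 923 or less. The strongest V5 peak scored 23478 at Celf4 (rank 1), 17293 at Arfgef3 (rank 3), 14422 at Tmem182 (rank 4), 9883 at Fam43a (rank 12) and 4927 at Auh (rank 74). It made up 80.7%, 97.8%, 62.5% and 85.1% of the summed V5 score of the Celf4, Arfgef3, Tmem182 and Fam43a windows, and 21.2% at Auh. The next scores around these members belonged to sites that were not taken, with 19716 at rank 2 near Crem, 13847 at rank 5, 9930 at rank 11 and 9624 at rank 13. Without the strongest peak of each window, 25 of the other 55 peaks (45.5%) lay under the list median of 230, and their own median was 241. This differed by gene, with medians of 207 over 15 peaks at Celf4, 94 over 3 at Arfgef3, 164 over 6 at Fam43a and 279 over 20 at Auh, and a higher 875 over 11 at Tmem182. Of all 60 peaks, 14 (23.3%) were within the first 1000 of 10665 ranks, a count that the choice of genes by score bears on.

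**Figure D2:**
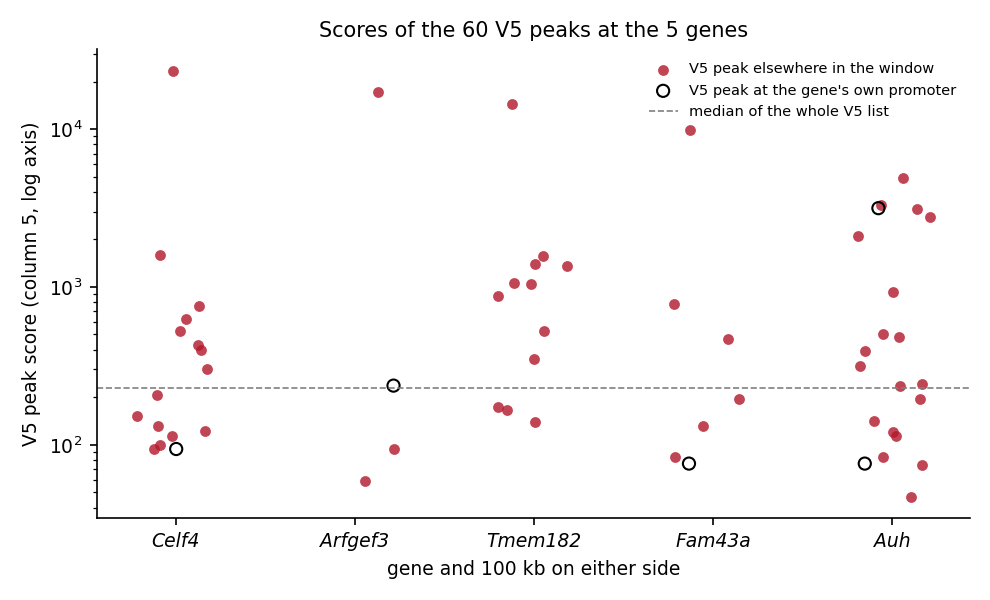
Each point is 1 V5 peak of the 5 windows, with its column 5 score on a log axis and the gene on the horizontal axis. Black open circles are peaks within 3 kb of the gene's own start sites and the dashed line is the list median of 230. The highest point of every gene lies away from its promoter, and own-promoter peaks sit between 76 and 237 except for 1 Auh peak at 3154.

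The density of V5 peaks gave a different order. Auh had 21 V5 peaks in its window, 7.13 per 100 kb, the highest value of all 21938 coding gene windows. Tmem182 had 12, or 4.78 per 100 kb, which 0.273% of coding gene windows reached. Fam43a had 7 (3.45 per 100 kb, reached by 1.14%) and Celf4 had 16 (3.36 per 100 kb, reached by 1.34%). Arfgef3 had 4, or 1.10 per 100 kb, and 18.2% of coding gene windows had at least that density. The median over coding gene windows was 0.425 per 100 kb, and 42.0% of them held no V5 peak.

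**Figure D3:**
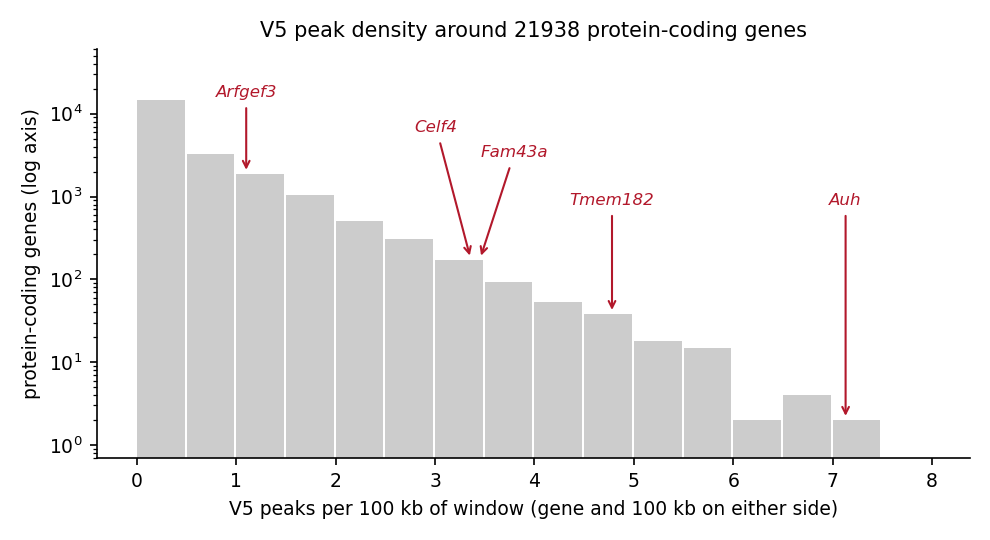
The horizontal axis is the number of V5 peaks per 100 kb of window, the vertical axis is the number of protein-coding genes on a log scale, and arrows mark the 5 genes. Auh stands in the last filled bin at 7.13 per 100 kb, and Arfgef3 at 1.10 is near the bulk of genes.

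Celf4, which encodes a neuronal RNA-binding protein that controls splicing and mRNA stability, carried the strongest V5 peak of the list in its first intron. This peak spanned chr18:25712181-25715700, 40.0 kb downstream of the start site of the main transcript. It lay within an RNAPOL2 peak of score 201 (rank 10856) and within an 18130-bp H3K27ac peak of score 2323 (rank 1610), and a start site of the annotated gene 0710001A04Rik was within 3 kb. A second V5 peak of score 1587 at chr18:25721681-25723970 fell in the same H3K27ac peak, and the next of 755 lay 53.6 kb into the gene. The lower named peaks, of score 622 and 523, were 211 kb into the gene and 57.5 kb upstream of it, and the upstream peak was the only one of the 60 that overlapped neither H3K27ac nor RNAPOL2.

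The Celf4 promoter itself was active by these lists. An RNAPOL2 peak of score 2179 (rank 1541) and an H3K27ac peak of score 1418 (rank 3557) covered the main start site, and 8.0% and 18.3% of coding genes had promoter scores at least as high. The V5 peak there had a score of 94, rank 8778 of 10665. RNAPOL2 peaks ran through the gene, with 67 of the 70 in the window touching it and 36.5% of its 277 kb covered, a share reached by 5.01% of coding genes. Most were weak, with a median score of 54 over the window against 246 over the whole list. When H3K27ac peaks no more than 12 kb apart were joined, 12 of them formed a 106-kb region that held 11 V5 peaks. That region ran from intron 2 into intron 1 and stopped short of the promoter, which belonged to a separate 10.6-kb region with 2 V5 peaks.

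Arfgef3, a Sec7-family relative of the ARF guanine nucleotide exchange factors that is known from insulin granule control, had 4 V5 peaks and almost all of its V5 score in 1 of them. The peak at chr10:18704321-18707310, the one with the 12-base repeat, lay in intron 2, 38.1 kb from the start site. It was contained in a 10280-bp RNAPOL2 peak of score 258 (rank 10025) and in a 13540-bp H3K27ac peak of score 674 (rank 7211). A pair of low V5 peaks flanked it, of score 94 at 42.6 kb and of score 59 at 32.6 kb, inside the same H3K27ac peak. The fourth lay on the start site with a score of 237, rank 5152.

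The promoter of Arfgef3 was active, with an RNAPOL2 peak of 2055 (rank 1735) and an H3K27ac peak of 1798 (rank 2557). RNAPOL2 peaks covered 67.0% of the 162-kb gene, which 2.35% of coding genes reached, in 40 peaks whose scores apart from the promoter ran from 25 to 258 with a median of 63. H3K27ac was more confined, covering 12.7% of the gene, and between the promoter and the block around the strong V5 peak the nearest acetylated pieces had scores of 160 and 49. The last RNAPOL2 peak of the gene, 7900 bp wide with a score of 212, reached past its 3′ end.

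Tmem182, which encodes a multi-pass membrane protein of muscle cells that restrains myoblast fusion, was the exception among the 5 at its promoter. Its strongest V5 peak, at chr1:40811501-40813040 in intron 3, lay 6.67 kb from the start site, nearer than the strongest peak of any other member to its own. It lay in an H3K27ac peak of score 853 (rank 6056), and an RNAPOL2 peak of score 54 (rank 16501) overlapped it. V5 peaks of 1580, 1392 and 1359 followed at 17.6, 34.9 and 42.1 kb, all inside H3K27ac peaks of 992 or 977 and none overlapping RNAPOL2, and a peak of 1063 lay 69.3 kb from the start site, beyond the gene. The median V5 score of the window, 961, was the highest of the 5.

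At the Tmem182 start site RNAPOL2 was barely called and V5 was not called. The RNAPOL2 peak there had a score of 49 (rank 17504), and of the 11738 coding genes with an RNAPOL2 promoter peak 64 scored this low or lower (0.545%). The H3K27ac peak had a score of 160 (rank 15362), with 11.0% of H3K27ac-marked coding genes at or below it. RNAPOL2 peaks covered 3.28% of the gene and H3K27ac peaks covered 61.7%, a share that 2.26% of coding genes reached. Joined over gaps of 12 kb, 10 H3K27ac peaks formed a 53.2-kb region over the start site and the whole gene that held 11 V5 peaks. The strongest RNAPOL2 peak of the window, 1331, stood at the promoter of the neighbouring Mfsd9, 15.3 kb upstream.

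Fam43a, a gene of 1 exon and 3.08 kb, had its strongest V5 peak outside the gene. The peak at chr16:30609921-30611630, with the TGA triplet runs, lay 11.1 kb downstream of the start site, overlapped H3K27ac peaks of 518 and 249 on its flanks and overlapped no RNAPOL2 peak. Nearly all of the repeat stretch lay in the gap between those H3K27ac peaks. A V5 peak of 469 lay between it and the gene at 4.79 kb. Farther V5 peaks of 780, 196 and 132 lay 46.2, 92.8 and 28.1 kb downstream, each in an H3K27ac peak of score 273 or less and none in an RNAPOL2 peak.

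The Fam43a promoter carried the strongest RNAPOL2 promoter peak of the 5 genes. An 8300-bp RNAPOL2 peak of score 6308 (rank 110), which 0.515% of coding genes reached, covered the entire gene and ran on to include the V5 peak at 4.79 kb. The H3K27ac peak over the start site had a score of 2736 (rank 1138). The V5 peak on the start site had a score of 76, rank 9387. The rest of the window held 2 RNAPOL2 peaks, of 628 at Lsg1 and of 1402 farther upstream at 89.0 kb.

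Auh, which encodes an RNA-binding enoyl-CoA hydratase of mitochondria that acts in leucine breakdown, had 21 V5 peaks in its window, of which 15 lay in 1 broad acetylated region. H3K27ac peaks overlapped all 21 and RNAPOL2 peaks 17 of them. The highest, of 4927 at chr13:52821471-52823560, lay beyond the 3′ end of the gene, 107 kb from the start site, in an H3K27ac peak of 1780, and an RNAPOL2 peak of 117 covered 87.1% of it. The next, of 3281, lay in intron 6 at 49.2 kb, and the third, of 3154, in intron 3 at 14.9 kb, within 3 kb of an internal coding start site. The other named peaks were upstream of Auh and overlapped another gene, Nfil3, which encodes a basic leucine zipper repressor. They scored 3115 and 2767, and the peak of 2767 spanned 4950 bp over the Nfil3 promoter. None of these 5 peaks stood above the others in the manner seen at Celf4 or Arfgef3.

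RNAPOL2 covered 95.8% and H3K27ac 89.1% of the 94.6-kb Auh gene, shares that 1.22% and 1.12% of coding genes reached. One RNAPOL2 peak of score 2104 (rank 1642) was 32220 bp wide and spanned all annotated start sites of the gene, and an H3K27ac peak of 2604 (rank 1280) did the same over 23040 bp. A further H3K27ac peak of 2813 was 39960 bp wide. At the main start site the V5 peak had a score of 76. The joined H3K27ac region spanned 126 kb, the second widest of 16205, and its 15 V5 peaks were the most of any region, ahead of 14 in a region of chromosome 17 and 11 in each of 4 others, of which 2 were those at Tmem182 and Celf4. Nfil3, in its own region, had promoter scores of 6551 for RNAPOL2 and 5958 for H3K27ac.

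**Figure D4:**
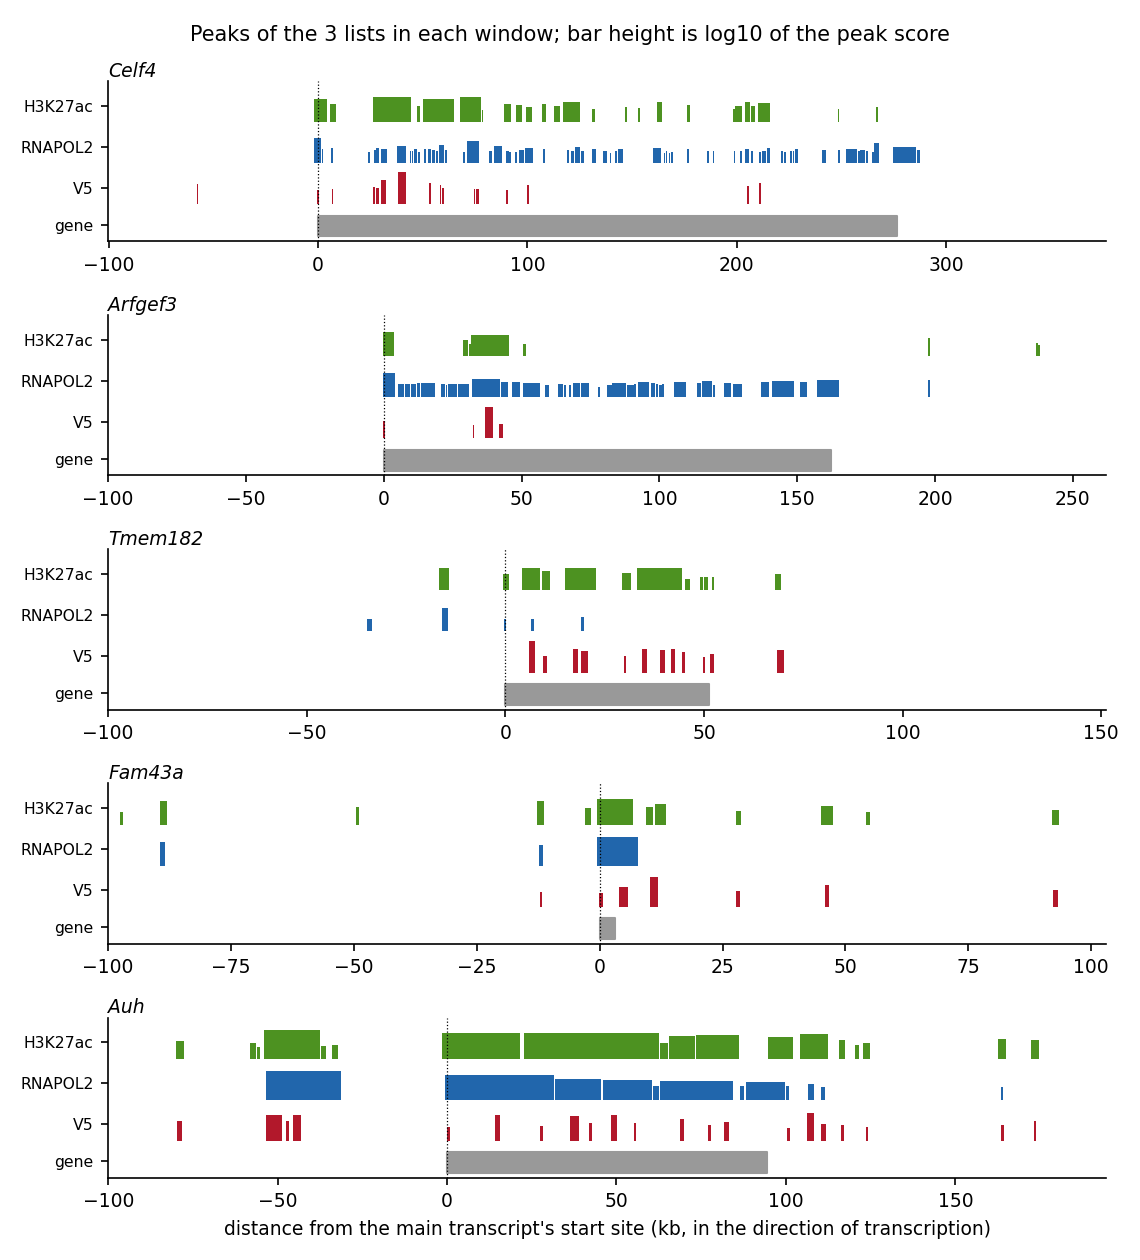
Each panel is 1 window, with distance from the main start site in kb in the direction of transcription on the horizontal axis, the gene in grey and the peaks of each list as bars whose height is log10 of the score. RNAPOL2 bars fill Arfgef3 and Auh, are scattered through Celf4, cover Fam43a whole and are nearly missing from Tmem182, while the tallest V5 bar of every panel lies away from the dotted start site.

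With a promoter taken as 3 kb on either side of each annotated start site, all 5 genes had both RNAPOL2 and H3K27ac peaks at the promoter, as did 52.2% of coding genes. In the upper 50% of both lists by score 4 of 5 did, all but Tmem182, against 45.0%. The promoter scores separated Tmem182 from the rest. RNAPOL2 scores were 2179, 2055, 6308 and 2104 at Celf4, Arfgef3, Fam43a and Auh, against a median of 912 over coding genes with such a peak, and 49 at Tmem182. H3K27ac scores were 1418, 1798, 2736 and 2604 at the same 4 genes, against a median of 863, and 160 at Tmem182. V5 peaks were called at 4 of 5 promoters, against 16.6% of coding genes, a count that the choice of genes by V5 peaks bears on. With only the upper 50% of the V5 list by score they were at 2 of 5, Arfgef3 and Auh, against 7.30% of coding genes. At the main start sites their scores were 94 at Celf4, 76 at Fam43a and 76 at Auh, under the median of 196 over coding genes with a V5 promoter peak, and 237 at Arfgef3, above it. RNAPOL2 covered at least 50% of the gene at Arfgef3, Fam43a and Auh, 3 of 5, against 3.45% of coding genes. At Fam43a, a gene of 3.08 kb, the cover was the promoter peak itself, and the share was not matched for gene length.

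**Figure D5:**
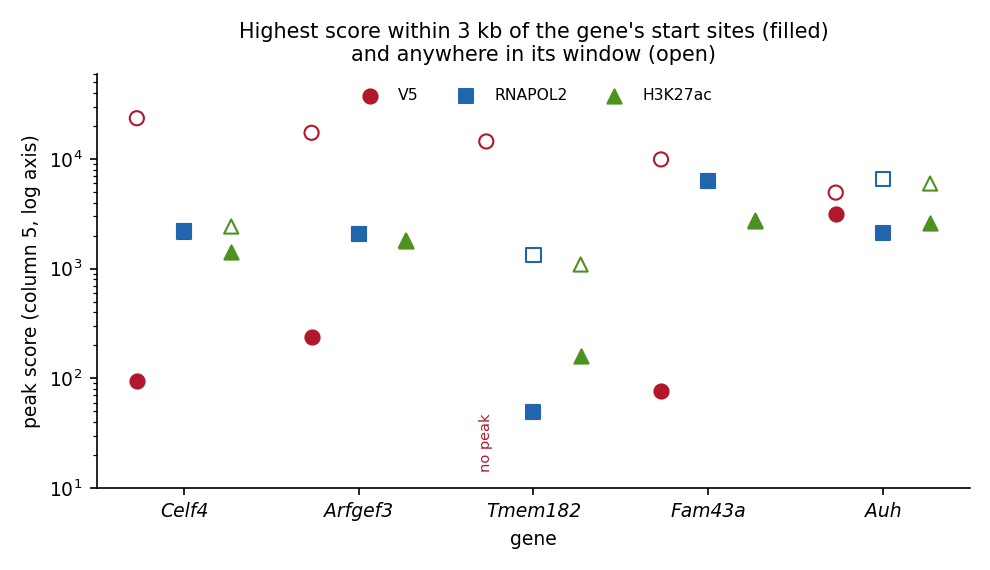
For each gene the filled symbols give the highest peak score within 3 kb of its start sites and the open symbols the highest in its window, on a log axis, for V5 (circles), RNAPOL2 (squares) and H3K27ac (triangles). Filled and open V5 circles are far apart at Celf4, Arfgef3 and Fam43a, Tmem182 has no V5 promoter peak, and its RNAPOL2 square at 49 is the lowest filled square. The filled V5 circle of Auh is the 3154 peak near an internal start site.

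The RefSeq promoters of Arfgef3 and Tmem182 are printed to set a promoter with a V5 peak beside the promoter with none. Each is 300 bases on the gene's own strand from GRCm38.p6, 5′ to 3′, at chr10:18743709-18744008 (minus strand) and chr1:40805351-40805650 (plus strand), with the core TGACG in capitals. The Arfgef3 stretch is placed near the annotated start site at chr10:18743753, which lies inside the gene from the main one at chr10:18743949, and the V5 peak covers both.
Arfgef3 promoter: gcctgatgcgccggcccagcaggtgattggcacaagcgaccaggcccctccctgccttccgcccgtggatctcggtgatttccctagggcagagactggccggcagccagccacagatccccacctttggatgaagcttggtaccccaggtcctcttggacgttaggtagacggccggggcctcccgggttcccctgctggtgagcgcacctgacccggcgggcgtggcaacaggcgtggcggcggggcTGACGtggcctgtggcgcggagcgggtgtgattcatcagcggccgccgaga
Tmem182 promoter: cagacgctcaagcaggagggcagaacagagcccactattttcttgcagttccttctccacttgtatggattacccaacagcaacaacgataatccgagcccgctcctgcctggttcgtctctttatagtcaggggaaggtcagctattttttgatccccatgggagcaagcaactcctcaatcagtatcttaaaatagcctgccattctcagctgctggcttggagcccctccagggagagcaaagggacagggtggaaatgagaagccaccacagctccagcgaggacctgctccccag
The Arfgef3 promoter held 1 TGACG, on either strand, and 20.8% of 32851 RefSeq promoters of this length held at least 1. It held no TGACGTCA, which 1.79% of those promoters held. The promoters of Tmem182, Fam43a and Auh held neither, and no promoter sequence of Celf4 was counted. The Arfgef3 promoter was 68.7% G and C with 25 CpG dinucleotides, and that of Tmem182 was 53.0% G and C with 6, against medians of 52.7% and 7 over all these promoters. Fam43a had 21 CpG dinucleotides and Auh 23.

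Across the windows the V5 peaks were seated in acetylated chromatin. H3K27ac overlapped 59 of 60 V5 peaks (98.3%, Wilson 95% interval 91.1 to 99.7%), against 73.4% of all V5 peaks, and the upper 50% of the H3K27ac list by score overlapped 85.0%, against 50.8%. RNAPOL2 overlapped 41 of 60 (68.3%, 55.8 to 78.7%), against 42.0%, and this share differed by gene, with 15 of 16 at Celf4, 4 of 4 at Arfgef3, 17 of 21 at Auh, 3 of 7 at Fam43a and 2 of 12 at Tmem182. With only the upper 50% of the RNAPOL2 list by score the share was 38.3%, against 29.7% of all V5 peaks, and with flanks of 200 kb it was 53.3%. RNAPOL2 peaks covered the most sequence at Auh, 123 kb, and 113 kb at both Celf4 and Arfgef3, but 10.2 kb at Fam43a and 5.05 kb at Tmem182. Promoters of any gene were the site of 9 of 60 V5 peaks (15%, 8.10 to 26.1%), against 40.6% of all V5 peaks. Inside the member genes lay 40 of the 60, in windows built around those genes. The share of all V5 peaks that lie inside genes was not counted.

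Other coding genes with a start site in the windows were few. Mfsd9 beside Tmem182, Hebp2 beside Arfgef3, Lsg1 beside Fam43a and Nfil3 beside Auh had both RNAPOL2 and H3K27ac at the promoter. Gm4922 beside Arfgef3 had neither, and Tmem44 beside Fam43a had H3K27ac of score 192 only. Slc9a2 beside Tmem182 had only an internal start site in the window, and its promoter peaks lay outside. V5 was called at the promoters of Nfil3 (2767) and Lsg1 (84), and outside the window at that of Slc9a2 (43). For every named peak at Celf4, Arfgef3, Tmem182 and Fam43a the nearest coding gene with both promoter marks was the member itself, and at Auh the peaks of 3115 and 2767 were nearest to Nfil3.

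Over the 30 relatives of the members by family or pathway, V5 was called at 4 promoters (13.3%), near the 16.6% of all coding genes, and 22 (73.3%) had both RNAPOL2 and H3K27ac, against 52.2%. Of the other CELF family genes, 2 of 5 had both promoter marks, Celf1 and Celf2, and V5 was called at Celf2 alone, with a score of 921. Of 14 ARF exchange factor genes, which activate small GTPases of vesicle traffic, 11 had both marks and 1, Iqsec1, had a V5 promoter peak, of score 46. Fam43b, the paralogue of Fam43a, had no promoter peak in any list. Of 10 genes that act with Auh in leucine breakdown, 9 had both marks, all but Dbt, and V5 peaks were called at Dld (142) and Mccc2 (218). RNAPOL2 coverage of the gene was at most 35.1% in these relatives, at Cyth2, compared with 36.5% to 100% at Celf4, Arfgef3, Fam43a and Auh and 3.28% at Tmem182, which lay within the range of the relatives.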

How the data were processed

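The members and gene lists were chosen with earlier results of these data known. Per the labels and the study's methods, reads were aligned to mm10 with BWA 0.7.10-r789 and peaks called with MACS2 2.2.6; the authors deposited 1 list per antibody, with the score of each peak in column 5. The scale of the score is not given in the sources used here. The labels hold 4 samples per antibody, but the methods name more libraries for V5 and RNAPOL2, and the sources used here do not tie the samples to the lists. Input has no list.

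Peaks were assigned to a window, promoter or gene by an overlap of at least 1 bp (Python 3.11.15, pandas 2.3.3, numpy 2.4.6, pysam 0.24.0). Genes came from GENCODE vM21 and sequence from RefSeq GRCm38.p6. H3K27ac peaks up to 12 kb apart were joined. The 5 V5 peaks of highest score per window, peaks at members' promoters, coding genes in the windows and fixed lists of relatives and markers were named. Intervals are Wilson 95% (scipy 1.17.1). Functions were tested on simulated data. No test between groups was made.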

Additional observations from a re-analysis of the deposited data

How the results depend on the processing

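Of 37 other settings, 28 left the value within 1.5 times the reported count or within the interval of the reported share, and 9 moved it. With the upper 50% of a list by score, the windows held 35 V5 peaks, and 2 members had a V5 promoter peak, against 7.30% of coding genes. At that setting H3K27ac overlapped 85.0% of the V5 peaks of the windows, against 50.8% of all V5 peaks, and RNAPOL2 38.3%, against 29.7%. H3K27ac overlapped 100% with flanks of 50 kb, and RNAPOL2 overlapped 53.3% with flanks of 200 kb. Over whole peaks, other TGANNTCA was found in 50%, against 40.3% of all V5 peaks, and TGAGTCA in 38.3%, against 26.0%. In the central 300 bases TGA or TCA strings without gaps were in 1.67%, against 0.413%. The count of members with both RNAPOL2 and H3K27ac promoter peaks was 5 with windows of 1 and 5 kb and with coding transcripts only, and 4 in the upper 50% of both lists, where Tmem182 was lost.

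No paired analysis was possible because each antibody had 1 list. For the same reason no replicate could be left out. The counts of TGATG or CATCA were added after the data had been seen, and they fell from 19 to 0 at Celf4 and from 18 to 9 at Arfgef3 in the central 300 bases. The lists hold no read counts, so the lack of a peak says only that none was called.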
